A study of Mus musculus with 12 samples.

Results

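The flavin-containing monooxygenase genes Fmo1, Fmo2, Fmo4 and Fmo5 were followed in livers of 12 male mice by bulk RNA-seq. They were chosen by gene name, as every row so named in the count tables of the series, which gave 4 genes of the 23391 listed in either table. All 4 were listed in both tables, with between 140 and 41509 counts in a liver, and all 4 passed the filter on low counts in every comparison. Per the labels the mice were C57BL/6N males aged 4 to 6 months in which both Elavl1 copies were floxed (HuR flox/flox). One group of mice received AAV8-Tbg-Cre, a virus that carries Cre recombinase behind the hepatocyte promoter Tbg, and their livers are labelled HuRHep-/-. Their controls, called WT, carried the same floxed allele and received AAV8-Tbg-null. Both genotypes were either kept on normal chow or fed for 16 weeks a high fat, cholesterol and fructose (HFCF) diet with 40 kcal% fat, 2% cholesterol and 20 kcal% fructose. This gave 4 groups of 3 livers, and the methods of the study describe instead an albumin-Cre cross in younger mice.

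Flavin-containing monooxygenases (FMOs) are enzymes of the endoplasmic reticulum membrane that hold FAD and use NADPH and oxygen to add an oxygen atom to nitrogen or sulfur of drugs, dietary amines and thiols. Unlike cytochromes P450 they take electrons from NADPH directly, without a reductase. FMO1 oxidizes a broad range of amines and sulfides, FMO2 is best known from the lung, and FMO4 is the least characterized of the family. FMO5 differs from the rest in that it inserts oxygen beside carbonyl groups (Baeyer-Villiger oxidation), and it is abundant in liver. HuR, the product of Elavl1, is an RNA-binding protein that binds AU-rich and U-rich stretches of messenger RNAs.

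On GRCm38, the build of the deposited tables, Fmo4, Fmo1 and Fmo2 were neighbours on the minus strand of chromosome 1, at chr1:162793188-162813972, chr1:162829561-162866610 and chr1:162874317-162898726. The gaps between them were 15589 and 7707 bases. Fmo5 lay alone on the plus strand of chromosome 3, at chr3:97628804-97655282. No exon of the 4 genes overlapped an exon of another gene in the GENCODE annotation. The coding sequences were 60.5% to 63.6% identical between members, and the longest identical run between any pair was 24 bases. Of the 31-base words of each longest coding transcript, at most 0.524% occurred in transcripts of other genes, a guide to how many reads could be shared.

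The bases that code for the first glycine-rich motif, part of the fold that binds FAD, are shown to let the 4 genes be compared over a stretch that each enzyme needs. Each run has 60 coding bases from GENCODE transcripts on GRCm38, read 5′ to 3′ on the coding strand and starting 7 codons before the motif. Capitals mark the 32 bases that are the same in all 4 genes.
Fmo1, chr1:162859494-162859553, minus strand: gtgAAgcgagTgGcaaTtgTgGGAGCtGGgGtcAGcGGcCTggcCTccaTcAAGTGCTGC
Fmo2, chr1:162898243-162898302, minus strand: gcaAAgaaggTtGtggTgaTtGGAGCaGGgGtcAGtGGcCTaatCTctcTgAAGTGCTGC
Fmo4, chr1:162809859-162809918, minus strand: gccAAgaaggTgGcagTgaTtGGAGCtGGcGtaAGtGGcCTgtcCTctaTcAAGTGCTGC
Fmo5, chr3:97629067-97629126, plus strand: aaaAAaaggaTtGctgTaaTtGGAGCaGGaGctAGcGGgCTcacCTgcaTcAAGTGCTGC
The motif took codons 9 to 14 in Fmo1, Fmo2 and Fmo4 and codons 10 to 15 in Fmo5. At the other 28 of these 60 bases at least 1 member differed.

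The 12 libraries held 30071731 to 35949203 counted reads each. The count of Elavl1 itself was higher, not lower, in the livers labelled HuRHep-/-. On chow it was 1475, 1265 and 1261 in them and 938, 876 and 948 in WT livers, and on HFCF it was 1299, 1242 and 1271 against 904, 791 and 849. The log2 fold change was 0.41 on chow (SE 0.07, limma adjusted p = 0.0219) and 0.38 on HFCF (SE 0.07, limma adjusted p = 0.0327). Every direction given here for genotype therefore rests on the labels. Nothing in the labels says how the 3 livers of a group were housed or collected, so p-values measure the spread between these samples. In whole liver, fewer cells of a type and less RNA per cell cannot be told apart. All 10 hepatocyte markers were detected in every group, with summed levels of 64054 to 120091 CPM, which are counts scaled to the size of the library.

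Fmo5 was the most abundant member, and Fmo2 and Fmo4 were the least. Levels of different genes were compared as CPM per kilobase of exon. On this scale the mean in chow WT livers was 94.5 ± 10.6 for Fmo5, 23.7 ± 2.87 for Fmo1, 2.48 ± 0.741 for Fmo2 and 1.60 ± 0.337 for Fmo4 (SD, n = 3). Fmo5 was above Fmo1, and Fmo1 above Fmo2 and Fmo4, in each of the 12 livers. Fmo5 made up 77.2% ± 2.35 (SD, n = 3) of the summed level of the 4 genes in chow WT livers, and Fmo1 made up 19.4% ± 1.62. In HFCF WT livers the share of Fmo5 was 84.7%, and that of Fmo1 was 13.2%.

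The order of the lowest pair differed between groups. In chow WT livers the levels of Fmo2 (1.66 to 3.08 CPM per kilobase) and Fmo4 (1.24 to 1.91) overlapped, although Fmo2 was the higher in each of the 3. In HFCF WT livers they overlapped at 1.81 to 3.51 and 1.80 to 1.89, with Fmo2 the higher in 2 of 3. In chow livers labelled HuRHep-/-, Fmo4 (2.46 to 2.77) lay above Fmo2 (1.02 to 1.51) in all 3 livers. In HFCF livers labelled HuRHep-/-, Fmo2 (2.89 to 4.45) lay above Fmo4 (1.94 to 2.03) in all 3. The exon length of Fmo1 joins 8 transcripts and is 6304 bases, against 2388 for its longest coding transcript. On the length of the longest coding transcript its level in chow WT livers was 62.7 in place of 23.7, still below Fmo5 at 103.2. On that length Fmo1 made up 36.5% and Fmo5 60.2% of the summed level in chow WT livers, and 26.7% and 71.0% in HFCF WT livers.

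**Figure D1:**
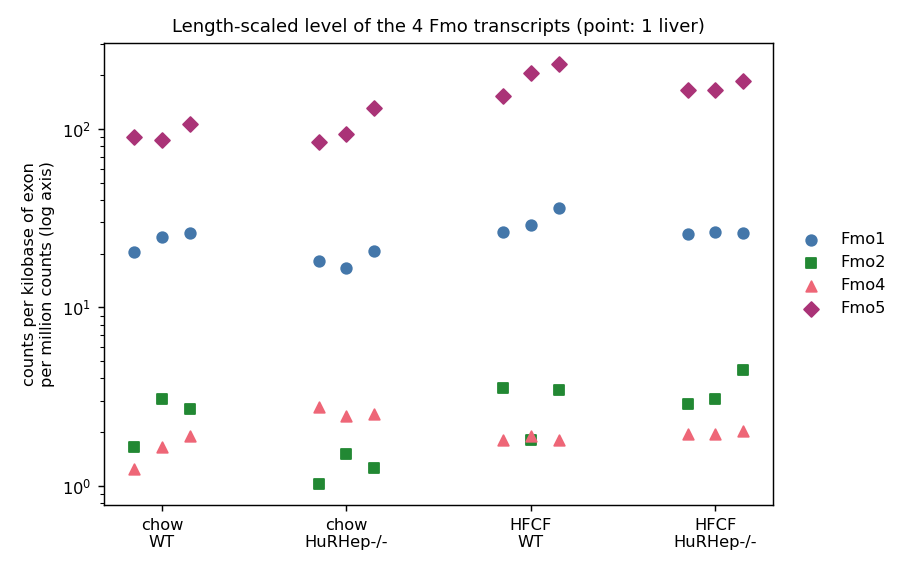
Level of each member in each liver, as CPM per kilobase of exon on a log axis, by group, with 1 point for each liver. Fmo5 lies above Fmo1, and Fmo1 above the others, in all 12 livers, while Fmo2 and Fmo4 change places between the chow livers labelled HuRHep-/- (Fmo2 at 1.02 to 1.51, Fmo4 at 2.46 to 2.77) and the HFCF livers of that label.

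The comparison of genotypes on chow asked how the livers labelled HuRHep-/- differed before any dietary load. Fmo2 was lower and Fmo4 higher in them, each without overlap between the groups, but neither passed the test across all genes at an adjusted p of 0.05. None of the 4 members was called in this comparison, where 4.23% of 13526 genes were. An unadjusted p under 0.05 was reached by 3 of the 4, beside 23.5% of all genes.

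Fmo2 had 9.28, 17.3 and 15.2 CPM in chow WT livers and 5.71, 8.45 and 7.08 in chow livers labelled HuRHep-/-. The highest of the latter group lay just under the lowest WT liver. The log2 fold change was -0.94 (SE 0.24, limma adjusted p = 0.0744), a level 0.522 times that of WT. Without the lowest WT liver, replicate 1, it was -1.21 with a limma adjusted p of 0.042.

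Fmo4 had 4.61, 6.09 and 7.09 CPM in chow WT livers and 10.3, 9.10 and 9.39 in chow livers labelled HuRHep-/-. All 3 of the latter lay above every WT liver. The log2 fold change was 0.72 (SE 0.16, limma adjusted p = 0.052), a level 1.64 times that of WT. The limma adjusted p was 0.0475 with voom weights and 0.0111 in a fit that took the spread from all 12 livers. Under the other 7 settings it was 0.0516 to 0.0774, and none of 6 fits that left out 1 liver called it (0.54 to 0.86, limma adjusted p 0.0696 to 0.161).

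Fmo1 had 129, 156 and 164 CPM in chow WT livers and 115, 105 and 131 in chow livers labelled HuRHep-/-. One liver of each group overlapped the other group. It differed by a log2 fold change of -0.35 (SE 0.11, limma adjusted p = 0.123).

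Fmo5, the most abundant member, had 510, 494 and 605 CPM in chow WT livers and 483, 535 and 749 in chow livers labelled HuRHep-/-. The groups overlapped, and the highest value was that of a single liver, replicate 3 of the latter. Its log2 fold change was 0.12 with a 95% interval from -0.25 to 0.49 (limma adjusted p = 0.691).

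Groups that do not overlap were frequent, at 29.5% of all genes in the chow comparison, and Fmo2 and Fmo4 were 2 of the 4 members. With 3 livers against 3 the exact permutation test, two-sided, cannot go below p = 0.1, which is the value both genes had. Beside these differences, 5 of 13 acute-phase genes were called higher and 1 lower on chow, with Saa1 at a log2 fold change of 4.01 and Lcn2 at 3.07. The summed level of 10 Kupffer cell and macrophage markers was 266 to 393 CPM in chow livers labelled HuRHep-/- and 196 to 257 in WT, and 0 of the 10 were called. The part of either in the Fmo differences was not tested.

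**Figure D2:**
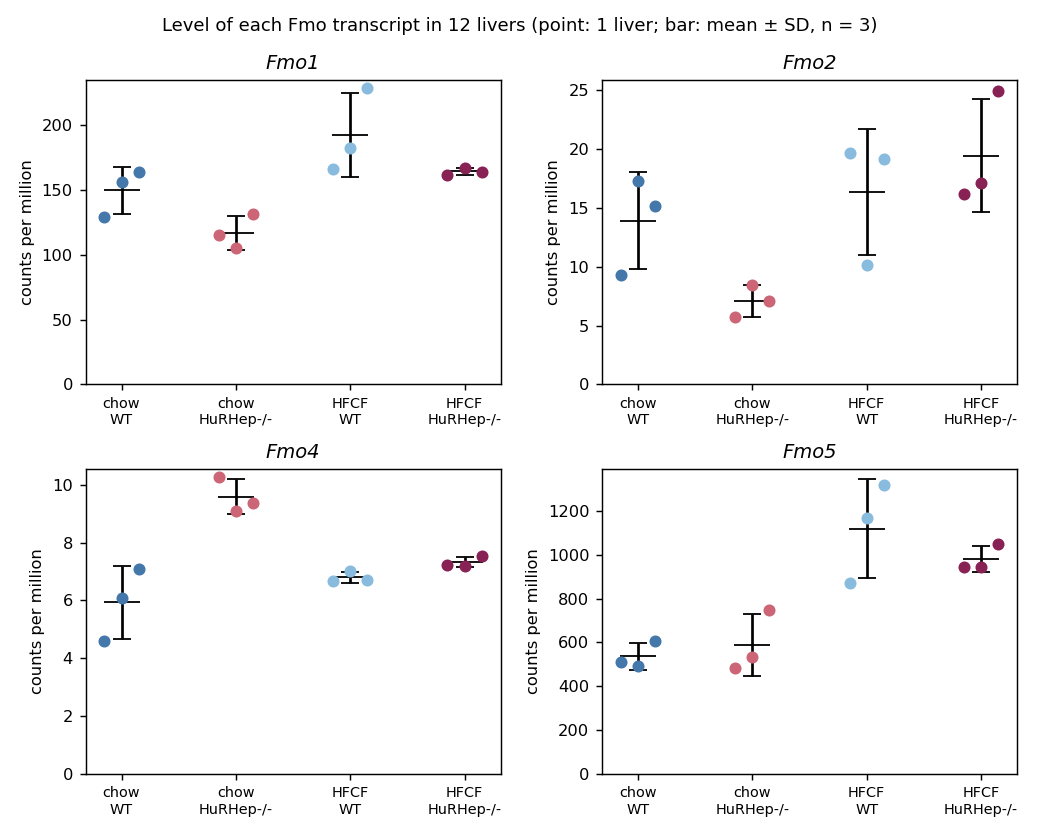
Level of each member in each liver in CPM, 1 panel for each gene and 1 point for each liver, with the mean and SD of the 3 livers as a bar. Fmo2 is lowest and Fmo4 highest in the chow livers labelled HuRHep-/-, and Fmo5 lies between 872 and 1319 in HFCF livers against 483 to 749 in chow livers.

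Within each liver the ratio of Fmo4 to Fmo2 counts does not depend on the scaling of libraries. This ratio was chosen after the values were seen and carries no support of its own. It was 0.496, 0.352 and 0.467 in chow WT livers and 1.80, 1.08 and 1.33 in chow livers labelled HuRHep-/-. The latter were the only livers with more Fmo4 than Fmo2 counts. On HFCF it was 0.339, 0.693 and 0.349 in WT livers and 0.446, 0.421 and 0.302 in livers labelled HuRHep-/-, and those groups overlapped.

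**Figure D3:**
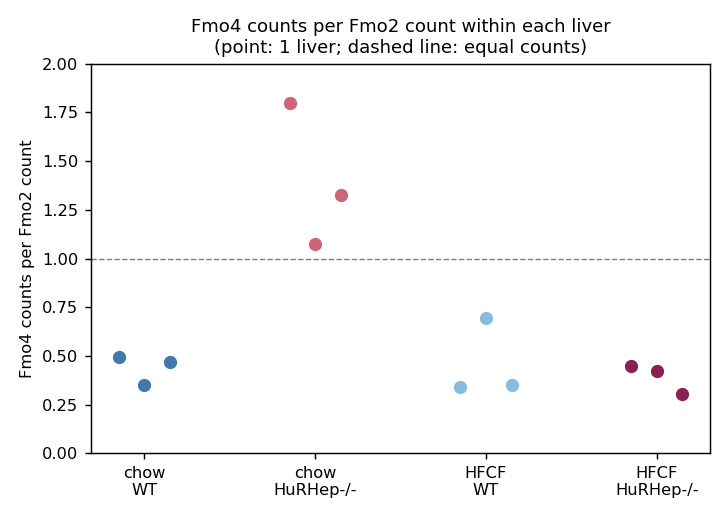
Counts of Fmo4 for each count of Fmo2 in each liver, by group, with 1 point for each liver and a dashed line at equal counts. The 3 chow livers labelled HuRHep-/- lie at 1.08 to 1.80, above the line, and the other 9 lie at 0.302 to 0.693.

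The same comparison of genotypes was made after HFCF feeding. None of the 4 members was called, beside 6.79% of 14295 genes, and none reached an unadjusted p under 0.05, beside 29.5% of all genes. Voom weights called none either.

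Fmo2 had 19.7, 10.1 and 19.2 CPM in HFCF WT livers and 16.2, 17.1 and 24.9 in HFCF livers labelled HuRHep-/-. The groups overlapped, and the lowest value belonged to WT replicate 2. Its log2 fold change was 0.27 with a 95% interval from -0.39 to 0.93 (limma adjusted p = 0.558), and without that liver it was -0.05.

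Fmo4 had 6.68, 7.02 and 6.71 CPM in HFCF WT livers and 7.23, 7.21 and 7.54 in HFCF livers labelled HuRHep-/-. The groups did not overlap, which held for 36.8% of all genes, but the difference was small. It came to a log2 fold change of 0.09 with a 95% interval from -0.12 to 0.30 (limma adjusted p = 0.524).

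Fmo1 had 166, 182 and 229 CPM in HFCF WT livers and 162, 167 and 164 in HFCF livers labelled HuRHep-/-. The latter group was narrow and lay at the lower end of WT, and the groups parted only when scaled on the 6 HFCF livers alone. Fitted over these livers, the log2 fold change was -0.23 (SE 0.11, limma adjusted p = 0.219).

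Fmo5 had 872, 1168 and 1319 CPM in HFCF WT livers and 945, 946 and 1049 in HFCF livers labelled HuRHep-/-. The values of the latter lay within the range of WT. This gave a log2 fold change of -0.19 with a 95% interval from -0.54 to 0.16 (limma adjusted p = 0.432).

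Over both diets together, with diet as a term, Fmo1 fell and Fmo4 rose in livers labelled HuRHep-/-. These were 2 of the 4 members, where 17.4% of 14535 genes were called. For Fmo1 the log2 fold change was -0.28 (SE 0.09, limma adjusted p = 0.0403), and in an exact permutation test, two-sided, with labels exchanged within each diet, p was 0.025. That of Fmo4 was 0.41 (SE 0.12, limma adjusted p = 0.0401), with an exact permutation p of 0.005, the smallest this design can give. Fitted by diet, the Fmo4 difference was 0.72 on chow and 0.09 on HFCF, so the pooled value came mostly from chow. The pooled limma values of Fmo1 and Fmo4 were close to the threshold. Leaving out 1 liver at a time kept the call of Fmo1 in 4 of 12 fits and that of Fmo4 in 3 of 12. In the same comparison 7 of 10 Kupffer cell and macrophage markers were called higher, 5 of 13 acute-phase genes higher and 1 lower, and 4 of 20 male-biased genes lower. Their part in these differences was not tested.

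Fmo2 and Fmo5 were not called over both diets. Fmo2 had a log2 fold change of -0.33 with a 95% interval from -0.90 to 0.24 (limma adjusted p = 0.41). Fmo5 had one of -0.03 with a 95% interval from -0.30 to 0.24 (limma adjusted p = 0.895).

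An interaction term tested whether the genotype difference changed with diet. None of the 4 members was called in limma, and 0% of 14535 genes were, while voom weights and the fit without a filter called 1 gene each. Without HFCF WT replicate 3 it called 41 genes, and without any other liver 0 to 2. For Fmo2 the difference was 1.23 on the log2 scale higher on HFCF than on chow (SE 0.41, limma adjusted p = 0.233). For Fmo4 it was -0.60 (SE 0.19, limma adjusted p = 0.213). An unadjusted p under 0.05 was reached by 2 of the 4 members, Fmo2 and Fmo4, and by 14.4% of all genes. Fmo1 had an interaction of 0.14 (limma adjusted p = 0.752) and Fmo5 one of -0.29 (limma adjusted p = 0.62).

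The comparison of diets within a genotype used the same livers as the genotype comparisons, and the 2 diets were deposited in separate count tables. Diet and table cannot be told apart, and differences in how the tables were made would appear as diet. Within these limits Fmo5 rose with HFCF in both genotypes, Fmo1 and Fmo2 rose and Fmo4 fell in the livers labelled HuRHep-/-, and Fmo5 alone was called in WT.

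In WT livers 1 of the 4 members was called with diet, beside 24.1% of 14535 genes. Fmo5 rose from 494 to 605 CPM on chow to 872 to 1319 on HFCF, without overlap, which held for 37.6% of all genes. This was a log2 fold change of 1.05 (SE 0.17, limma adjusted p = 0.00218), a level 2.07 times that on chow. The call held in each of 12 fits that left out 1 liver, although those without a liver labelled HuRHep-/- hardly move this estimate. A fold change of at least 1.5 with the same adjusted p, and at least 10 counts over each group, was found for 9.38% of genes.

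Fmo1 in WT livers was higher on HFCF without overlap, at 166 to 229 CPM against 129 to 164. The log2 fold change of 0.36 (SE 0.12) had a limma adjusted p of 0.0545. With upper-quartile factors this p was 0.0335. Fmo2 had a log2 fold change of 0.22 (95% interval -0.42 to 0.85, limma adjusted p = 0.62), and Fmo4 also had one of 0.22 (95% interval -0.07 to 0.51, limma adjusted p = 0.252). For both, the diets overlapped.

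In the livers labelled HuRHep-/- all 4 members were called with diet and none overlapped, where 38.9% of 14535 genes were called and 54.6% did not overlap. Fmo2 rose from 5.71 to 8.45 CPM on chow to 16.2 to 24.9 on HFCF. Its log2 fold change was 1.44 (SE 0.29, limma adjusted p = 0.00304), a level 2.72 times that on chow. Every HFCF liver lay well above the highest chow liver.

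Fmo5 rose from 483 to 749 CPM on chow to 945 to 1049 on HFCF in the livers labelled HuRHep-/-. Its log2 fold change was 0.76 (SE 0.17, limma adjusted p = 0.00579), a level 1.69 times that on chow. Fmo2 and Fmo5 were the members that also passed a fold change of 1.5 with at least 10 counts over each group, as 19.1% of genes did. Fmo1 rose from 105 to 131 CPM to 162 to 167, with a log2 fold change of 0.49 (SE 0.12, limma adjusted p = 0.00883).

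Fmo4 was the one member that fell with HFCF in the livers labelled HuRHep-/-, from 9.10 to 10.3 CPM to 7.21 to 7.54. Its log2 fold change was -0.39 (SE 0.13, limma adjusted p = 0.0385), a level 0.765 times that on chow. The HFCF livers of this label lay just above the highest WT liver of either diet, at 7.09 CPM. The call was lost with upper-quartile factors, where the log2 fold change was -0.31 (limma adjusted p = 0.0919). It was also lost in 7 of 12 fits that left out 1 liver, among them every fit without a liver of this label.

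**Figure D4:**
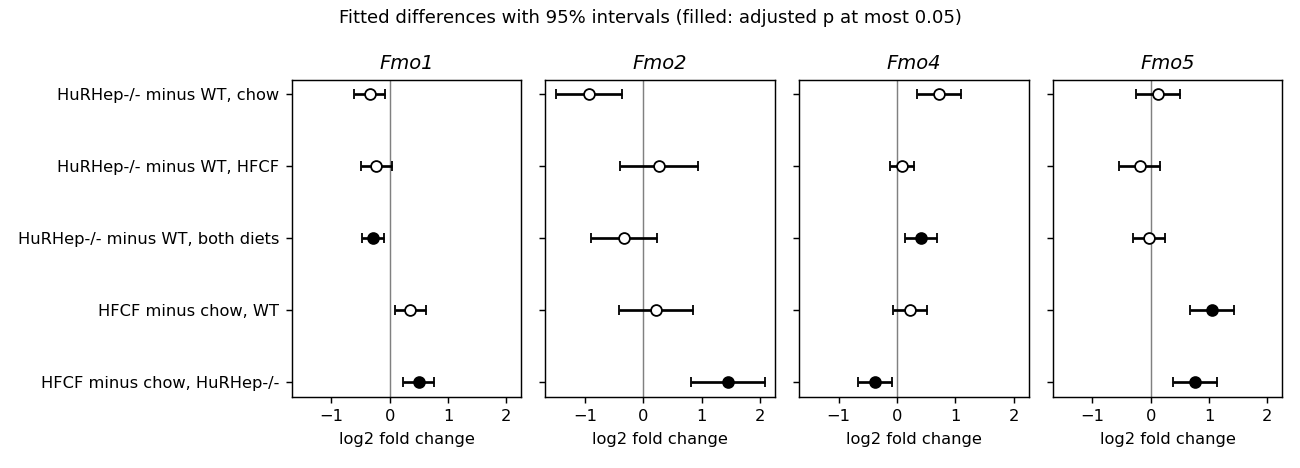
Log2 fold change of each member in 5 comparisons, 1 panel for each gene, with 95% intervals as lines, where filled points have a limma adjusted p of at most 0.05. Fmo5 has its filled points in the diet comparisons alone (1.05 and 0.76), and Fmo4 is above 0 in the genotype comparison over both diets (0.41) and below 0 with diet in the livers labelled HuRHep-/- (-0.39).

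Of the rest of the family, Fmo6 was listed in the HFCF table alone and Fmo9 in the chow table alone, with 1 count each over the 6 livers of that table.

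Sex-biased liver genes moved in the same livers. In the diet comparison of livers labelled HuRHep-/-, 18 of 20 male-biased genes were called lower (median log2 fold change -1.83, against 0.00 for all genes), led by Mup7 at -7.28, Mup1 at -6.46 and Hsd3b5 at -5.73. Of 13 female-biased genes tested, 7 were called higher and 1 lower (median 0.96), led by Cyp2b13 at 9.03, Cyp2b9 at 6.49 and Cyp2a4 at 6.06. In this comparison 38.9% of all genes were called in either direction. In WT livers, 6 of 20 male-biased genes were called lower with diet, beside 24.1% of all genes called in either direction, and of the female-biased genes 1 was called lower, Cyp2b10 at -3.90. On chow, where 4.23% of all genes were called between genotypes, 1 of 20 male-biased genes was called higher, Mup20 at 1.13. None of 10 female-biased genes was called. On HFCF, where 6.79% of all genes were called between genotypes, 3 of 19 male-biased genes were called lower, led by Ugt2b38 at -1.98. Of 13 female-biased genes, 2 were called higher, led by Cyp2a4 at 6.21. The part of these genes in the Fmo differences was not tested.

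Genes that supply the cofactors of FMOs were taken next. Of 11 genes that make or regenerate NADPH, none was called between genotypes on chow and 1 was called lower on HFCF, the mitochondrial NAD kinase Nadk2 at -0.38. Over both diets 1 was called higher, Idh2 at 0.42, and 2 lower, Nadk2 at -0.22 and Nnt at -0.20. With diet, 4 rose and 4 fell in livers labelled HuRHep-/-, beside 38.9% of all genes called. Of these, Pgd and G6pdx, enzymes of the pentose phosphate pathway, rose by 1.21 and 1.14 on the log2 scale, and H6pd, their counterpart in the endoplasmic reticulum, fell by 0.46. In WT livers 2 rose and 2 fell, beside 24.1% of all genes called, with Pgd at 0.70, Aldh1l1 at -0.46 and H6pd at -0.37.

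Of genes for riboflavin uptake and FAD synthesis, none of 5 tested was called between genotypes on chow and none of 6 on HFCF. With diet 1 of 6 was called in WT livers and 2 of 6 in livers labelled HuRHep-/-, beside 24.1% and 38.9% of all genes. The riboflavin transporter Slc52a2 rose by 0.45 on the log2 scale in WT livers, and Slc52a3 rose by 1.04 and the FAD synthase Flad1 fell by 0.16 in livers labelled HuRHep-/-. Of 10 tested genes for microsomal electron transfer and oxidation of thiols or amines, none was called between genotypes on either diet, and over both diets 1 was called lower, the methionine sulfoxide reductase Msra at -0.25. With diet the sulfur dioxygenase Ethe1 fell in both, by 0.56 in WT livers and by 0.38 in livers labelled HuRHep-/-, and Msra rose by 0.22 in each. Msrb1 also fell in livers labelled HuRHep-/-, by 0.31, which made 1 higher and 1 lower of 10 in WT and 1 higher and 2 lower in the latter.

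Targets of the aryl hydrocarbon receptor, a regulator of other oxygenases in liver, were not called between genotypes on either diet, at 0 of 6, and over both diets 1 was called lower, Ugt1a6a at -0.26. With diet 1 rose and 2 fell in WT livers, beside 24.1% of all genes called. The targets were Nqo1 at 0.68, Cyp1a2 at -1.57 and Cyp1a1 at -1.35 on the log2 scale. In livers labelled HuRHep-/- 2 rose and 1 fell, beside 38.9% of all genes called. There the targets were Cyp1b1 at 1.40, Nqo1 at 1.22 and Cyp1a2 at -1.88.

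Markers of other cells moved with diet beside the members. In livers labelled HuRHep-/-, 10 of 10 stellate cell and fibroblast markers, 5 of 6 cholangiocyte markers and 6 of 10 Kupffer cell and macrophage markers were called higher, and 5 of 10 hepatocyte markers lower. There, 4 of 8 lymphocyte and 2 of 8 endothelial markers were also called higher, beside 38.9% of all genes called in either direction. The summed level of the hepatocyte markers went from 81318 to 91404 CPM on chow to 64054 to 69573 on HFCF, and that of the stellate cell markers from 150 to 220 CPM to 407 to 498. In WT livers, 5 of 10 hepatocyte markers were called lower. Called higher were 4 of 10 Kupffer cell and macrophage markers and 3 of 10 stellate cell markers, beside 24.1% of all genes called. Both tested adipocyte markers of a list of 6 were called higher with diet in either genotype. The summed level of the 4 listed for both diets was 39.5 to 197 CPM on HFCF and 7.56 to 10.5 on chow. Between genotypes on HFCF 6.79% of all genes were called. In that comparison 2 of 6 cholangiocyte markers were called higher, Krt7 at 1.40 and Krt19 at 1.32. Of the other markers, 1 of 10 for stellate cells and fibroblasts was called higher and 1 of 10 for hepatocytes lower, Apob at -0.49. The part of these cells in the Fmo differences was not tested.

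The neighbourhood of Fmo5 on chromosome 3 gave its nearest genes for comparison. Chd1l rose with diet by 0.68 on the log2 scale in WT livers and by 0.57 in livers labelled HuRHep-/-. Prkab2, a subunit of AMP-activated kinase that begins 2911 bases away, rose by 0.66 in livers labelled HuRHep-/- and had 0.16 (limma adjusted p = 0.6) in WT. Pde4dip was called with diet in neither. On chromosome 1, Fmo4, Fmo1 and Fmo2 lie side by side, and over both diets Fmo4 and Fmo1 were called in opposite directions between genotypes.

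The 3′ untranslated regions were searched for short AU-rich words on the transcript strand, ATTTA and the longer TTTATTT, since HuR is known for such stretches. In the longest coding transcripts Fmo1 held no ATTTA in 411 bases, Fmo2 held 6 in 2411, Fmo4 held 2 in 770 and Fmo5 held 2 in 3455. Fmo4 and Fmo5 held 1 TTTATTT each, and Fmo1 and Fmo2 none. Among genes with a region within 20% of the same length, ATTTA occurred in 43.8% for Fmo1, 93.2% for Fmo2, 63.7% for Fmo4 and 96.9% for Fmo5. The median number of ATTTA in these genes was 0 for Fmo1, 4 for Fmo2, 1 for Fmo4 and 5 for Fmo5. TTTATTT occurred in 15.6% (Fmo1), 63% (Fmo2), 29.6% (Fmo4) and 73.3% (Fmo5) of them. A match describes the letters and is no evidence of binding.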

How the data were processed

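Bulk liver RNA-seq of 12 male mice was used. Per the labels, total RNA was made into libraries with a stranded kit. The study's methods state that the authors aligned reads to RefSeq GRCm38.p6 (mm10 in the submitters' processing notes) in CLC Genomics Workbench, and the authors deposited raw counts per gene in 1 table for each diet, 20775 genes for chow and 22709 for HFCF. The counts are text with commas inside the numbers, so they were entered as "other" in the table of units, and no count model was fitted.

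From these counts, log2 CPM were computed here with TMM factors and a pseudocount of 0.5 and fitted with limma 3.58.1 (trend, R 4.3.3). A gene was kept if at least 3 libraries reached the CPM that 10 counts make in the median library, and if its counts summed to 15 or more. Genotypes were compared within each diet on 6 livers. Genotype over both diets, its interaction with diet, and diet within genotype were fitted on 12 livers over the 20093 genes in both tables. P-values were adjusted over all genes by Benjamini-Hochberg, and a call means an adjusted p of at most 0.05. CPM printed per liver use factors from all 12. Single genes also had an exact permutation test. Levels and shares between genes used the union of GENCODE exons. Also run were fits with RLE or upper-quartile factors, no filter, 10 counts in every library, a pseudocount of 2, voom weights, the replicate number as a block, all 12 livers in 1 fit and leaving out each liver. Thinning to the smallest library, the length of the longest coding transcript and the Fmo4 to Fmo2 ratio were added after the data were examined. The fits were tested on simulated data. Depth was 30071731 to 35949203 counts a library, and the lowest count of a member was 140.

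The members and the gene lists were chosen with earlier results of these data known. Named genes were the members, Fmo6, Fmo9, Elavl1, up to 3 called genes per list with the largest change, the 3 genes most like each member over the 12 livers, and neighbours on the chromosome. One item is not reported here.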

Additional observations from a re-analysis of the deposited data

Results flagged for a closer look

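Both results here concern genes for which each liver of one group moved one way from its control mean of log2 CPM and each liver of the other group the opposite way. For Fmo2, all 3 chow livers labelled HuRHep-/- lay below the WT mean of log2 CPM and all 3 HFCF livers of that label lay above theirs. On the linear scale 1 of the latter, at 16.2 CPM, lay just under the HFCF WT mean of 16.3. The HFCF direction rests on WT replicate 2, the lowest at 10.1 CPM, and without it the log2 fold change on HFCF was -0.047. The genotype difference was higher on HFCF than on chow by 1.23 on the log2 scale (95% interval 0.33 to 2.13, limma interaction, adjusted p = 0.233). Leaving out 1 liver at a time gave adjusted limma p-values of 0.171 to 0.385.

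For Fmo4, all 3 WT livers lay above the chow mean of log2 CPM after HFCF feeding and all 3 livers labelled HuRHep-/- lay below theirs. The diet difference in livers labelled HuRHep-/- minus that in WT was -0.60 (95% interval -1.02 to -0.19, limma interaction, adjusted p = 0.213). Leaving out 1 liver at a time gave -0.74 to -0.43, with adjusted limma p-values of 0.193 to 0.368. Neither passed the test across 14535 genes.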

How the results depend on the processing

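With 3 livers a group, Fmo4, at a mean of 5.93 CPM in chow WT livers, was measured there from 140 to 217 counts, and several calls sat near the threshold. The rise of Fmo5 with diet in WT livers and those of Fmo1, Fmo2 and Fmo5 in livers labelled HuRHep-/- kept direction and call under all 8 other settings and in all 12 fits that left out 1 liver. The genotype estimates on chow moved little between settings (Fmo2 -0.95 to -0.93, Fmo4 0.70 to 0.72).

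On chow, Fmo4 was called with voom weights (0.72, limma adjusted p = 0.0475) and in the fit on all 12 livers (0.71, limma adjusted p = 0.0111), which makes 1 of 4 members called in place of 0. The 12-liver fit called 948 genes on chow and 1619 on HFCF, in place of 572 and 971. Over both diets, Fmo1 lost its call with upper-quartile factors (-0.26, limma adjusted p = 0.0538) and Fmo4 without a filter (0.40, limma adjusted p = 0.0557), leaving 1 of 4 in each. With diet in WT livers, Fmo1 was called with upper-quartile factors (0.40, limma adjusted p = 0.0335) and with 10 counts in every library (0.38, limma adjusted p = 0.0432), which makes 2 of 4 in each. With diet in livers labelled HuRHep-/-, Fmo4 was not called with upper-quartile factors (-0.31, limma adjusted p = 0.0919) or with 10 counts in every library (-0.35, limma adjusted p = 0.0567). The cause of these changes was not tested. On the longest transcript the level in chow WT livers was 48.2 for Fmo1 (62.7 on the longest coding one), 3.43 for Fmo2 and 2.21 for Fmo4, because a shorter length divides the same counts.

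Deviations of same-numbered livers correlated between -0.14 and 0.19. No other pair was compared, so pairing is unknown. With the replicate block, Fmo2 was called on chow (-0.94, limma adjusted p = 0.0261, 1 of 4), Fmo4 was not called over both diets (0.41, limma adjusted p = 0.0556, 1 of 4), and Fmo1 was called with diet in WT livers (0.36, limma adjusted p = 0.0221, 2 of 4). The block called 341 genes on chow, in place of 572, and 1341 on HFCF, in place of 971, and changed no other call of a member.

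The number of all genes called fell without 1 liver to as few as 9 of 13323 on chow (without HuRHep-/- replicate 2) and 28 of 14078 on HFCF (without HuRHep-/- replicate 1), from 572 and 971. It was also 88 to 136 on chow without WT replicate 1 or 3 or HuRHep-/- replicate 1, and 32 to 117 on HFCF without WT replicate 1 or HuRHep-/- replicate 2 or 3. Leaving out 1 liver, the log2 fold change on chow ranged from -1.21 to -0.75 for Fmo2, called without WT replicate 1 alone (limma adjusted p = 0.042), so 0 to 1 members were called, and from 0.54 to 0.86 for Fmo4. For Fmo5 it ranged from -0.065 (without replicate 3 of the livers labelled HuRHep-/-) to 0.25. On HFCF it ranged from -0.047 (without WT replicate 2) to 0.45 for Fmo2, from -0.32 to -0.09 for Fmo1 and from -0.35 to -0.05 for Fmo5, none called. Over both diets it ranged from -0.33 to -0.23 for Fmo1 (limma adjusted p 0.0217 to 0.0935), which kept its call only without WT replicate 1 or HuRHep-/- replicate 3 on chow or WT replicate 1 or 2 on HFCF. It ranged from 0.30 to 0.45 for Fmo4 (limma adjusted p 0.0349 to 0.0965), which kept its call only without HFCF WT replicate 2 or 3 or HFCF HuRHep-/- replicate 1, and 0 to 2 members were called. For Fmo5 it ranged from -0.13 to 0.045, above 0 without chow HuRHep-/- replicate 1, HFCF WT replicate 2 or HFCF WT replicate 3, and for Fmo2 from -0.54 to -0.18. With diet in WT livers it ranged from 0.22 to 0.46 for Fmo1, called without chow HuRHep-/- replicate 3 or HFCF WT replicate 1 (limma adjusted p 0.0483 and 0.0344), so 1 to 2 members were called, and from -0.051 (without chow WT replicate 1) to 0.53 for Fmo2 and 0.05 to 0.36 for Fmo4. The interaction of Fmo5 ranged from -0.46 to -0.10 and that of Fmo1 from 0.04 to 0.27. With diet in livers labelled HuRHep-/-, Fmo4 ranged from -0.42 to -0.34 (limma adjusted p 0.00879 to 0.109) and lost its call without any of the 6 livers compared or HFCF WT replicate 1.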

Other observations

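Genes whose level followed a member most closely over the 12 livers were sought among 10184 genes whose normalized counts averaged 100 or more. These correlations describe the 4 group means as much as single livers, so they carry no test. Nearest to Fmo5 were Smim14 (Pearson r 0.96), Hadh (0.94), an enzyme of mitochondrial fatty acid oxidation, and Sh3glb2 (0.94). Nearest to Fmo1 were Slc22a18 (0.93), Poc1a (0.93) and Zswim7 (0.92). Nearest to Fmo2 were Ten1 (0.94), Cpeb1 (0.93) and Trove2 (0.93), and nearest to Fmo4 were Sh3bp5 (0.92), Fbxo36 (0.92) and Trio (0.91). An r over 0.9 was shared with 32 genes by Fmo5, 19 by Fmo1, 9 by Fmo2 and 3 by Fmo4.

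Within groups, after the group means were taken off, none of 6 pairs of members passed a permutation test after adjustment. Fmo1 and Fmo5 came nearest, with Pearson r 0.75 (permutation p = 0.0564, adjusted 0.339) and Spearman rho 0.67 (permutation p = 0.0894, adjusted 0.536) over 12 livers. Without the 2 livers farthest from the median r was 0.75. For the remaining 5 pairs r lay between 0.06 and 0.50. Without the 2 livers farthest from the median r was -0.02 for Fmo1 and Fmo2, -0.01 for Fmo2 and Fmo4 and -0.20 for Fmo4 and Fmo5, so 3 of the 5 turned negative.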
